A study of Homo sapiens with 54 samples.

Results

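The integrated stress response is a shared answer of animal cells to amino acid shortage, misfolded protein and other strains. Sensor kinases phosphorylate the initiation factor eIF2, general protein synthesis slows, and the mRNA of the transcription factor ATF4 is translated all the more. ATF4, with CEBPG and other partners, then turns on genes that make and import amino acids, load them onto tRNAs, supply folate-bound carbon units and hold back growth. In prostate cancer cells this programme is known for supporting growth under stress. The 37 genes described here are ATF4 and 36 genes known as its partners, feedback regulators and targets. They were chosen by name, with earlier results of these data known. All 37 were among the 19225 genes of the deposited table, 27 found by the gene column and 10 by their Entrez identifier under a current symbol.

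RNA was sequenced from 3 human prostate cancer lines, all labelled wild type in genotype: LNCaP, from a lymph node metastasis, C4-2, a castration-resistant line derived from LNCaP, and 22Rv1, from a xenograft tumour. Each line was treated for 12 h with ethanol (vehicle), estradiol (E2, 100 nM), OSU-ERb-12 (100 nM, a ligand of estrogen receptor beta), enzalutamide (Enza, 1 µM, an antiandrogen drug), E2 with Enza, or OSU-ERb-12 with Enza. The 6 treatments in 3 lines gave 18 groups of 3 libraries, 54 in all, and the labels call the 3 biological triplicates. Cells were grown in medium with 10% fetal bovine serum, so the vehicle groups had serum hormones too. In the titles the groups given OSU-ERb-12 carry the code WT, which no label explains, so their assignment comes from the treatment field. Each line is 1 culture model, and results for 1 line speak for that line alone.

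Libraries held 32819568 to 52417050 reads in genes. Levels are given in CPM (counts per 1000000 reads, on the authors' effective library sizes), where 1 read was worth 0.0204 to 0.0323 CPM. Luminal prostate markers were present in all 54 libraries: KRT8 at 121 to 334 CPM and CDH1 at 289 to 518. Of other cell types, KRT14 lay between 0 and 1.77 CPM, LUM between 0 and 0.392, COL1A1 between 2.12 and 20.2, COL3A1 between 0.134 and 1.91 and CD68 between 4.02 and 10.3. KRT5, KRT15, TP63, COL1A2, DCN, PTPRC, CD3E and LYZ were not analysed here. Some libraries stood apart. C4-2 vehicle library 1 has a C4-2 title but the cell line tag of 22Rv1. Mitochondrial ribosomal RNA took 0.196% of reads in 22Rv1 vehicle library 3 and 0.149% in C4-2 E2 library 3, against at most 0.097% in the others. Counts over the 37 genes that use these 3 libraries, apart from an F test over the lines, were also computed without them. Where such a count changed, the value is given beside it. Single calls and counts of smaller lists were not all followed in this way.

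ATF4 binds with C/EBP partners to a composite element in many of its targets. Promoter windows from RefSeq (GRCh38.p14, 250 bases before and 50 after an annotated start site, 300 in all) were searched on both strands for TGATGNAA, which reads TTNCATCA on the other strand. A window existed for 29 of the 37 genes, and 11 of these (37.9%) held the letters, against 3.08% of 14069 table genes with a window and 3.62% of all 35116 windows. The match lay wholly before the start site in 7 and spanned or followed it in 4. The sequences below show the letters in genes that the E2 results turn on, with the match in capitals, 5′ to 3′ on the strand of the gene.
ASNS, chr7:97872443-97872502, minus strand: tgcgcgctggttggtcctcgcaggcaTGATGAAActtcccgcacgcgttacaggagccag
CHAC1, chr15:40953236-40953295, plus strand: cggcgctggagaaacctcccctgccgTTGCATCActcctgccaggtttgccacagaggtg
CEBPG, chr19:33374045-33374104, plus strand: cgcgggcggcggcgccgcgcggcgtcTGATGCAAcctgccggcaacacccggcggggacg
AARS1, chr16:70289660-70289719, minus strand: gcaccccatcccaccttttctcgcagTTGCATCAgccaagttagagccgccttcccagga
GARS1, chr7:30594819-30594877, plus strand: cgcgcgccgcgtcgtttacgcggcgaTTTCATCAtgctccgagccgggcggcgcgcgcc
MARS1, chr12:57488053-57488082, plus strand: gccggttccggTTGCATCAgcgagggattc
TARS1, chr5:33440956-33440985, plus strand: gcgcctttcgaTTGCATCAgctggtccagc
The other matches were in MTHFD1L, CARS1, IARS1 and NARS1. The median E2 change did not set the 11 genes with the letters far from the 18 without: -0.10 against -0.07 in LNCaP, -0.12 against -0.10 in C4-2 and 0.13 against 0.13 in 22Rv1 (log2, no test).

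Estradiol moved these genes in opposite directions in different lines. In LNCaP 13 of the 36 genes tested fell and 4 rose, in C4-2 7 of 37 fell and 1 rose, and in 22Rv1 18 of 37 rose and 1 fell (limma, Benjamini-Hochberg adjusted p under 0.05 over all genes of the line). Over all genes tested, the share that rose was 13.3% in LNCaP, 2.72% in C4-2 and 17.1% in 22Rv1, and the share that fell was 11.6%, 3.11% and 10.6%. The genes were chosen with earlier results of these data known, so setting them beside such shares is a description and not a test. The median log2 fold change of the genes was -0.08 in LNCaP (all genes -0.01), -0.10 in C4-2 (all genes -0.03) and 0.13 in 22Rv1 (all genes 0.03). The changes were small: apart from VLDLR, no gene moved by more than the 0.47 of DDIT4 in 22Rv1 on the log2 scale. In what follows a fold change is log2 and computed on CPM plus 0.5, ± is its standard error, and each adjusted p is from limma. Beside genes of similar level, which lay between the quartiles of the genes' own mean CPM, 12.4% of 3429 fell in LNCaP, 5.05% of 3267 fell in C4-2 and 29.2% of 4092 rose in 22Rv1; of the stress genes in those ranges 6 of 18, 6 of 19 and 10 of 19 did so. The medians there were 0.02 for all genes and -0.09 for the stress genes in LNCaP, -0.05 and -0.10 in C4-2, and 0.08 and 0.13 in 22Rv1. ALDH1L2 was under 1 CPM in LNCaP and was not tested there.

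**Figure D1:**
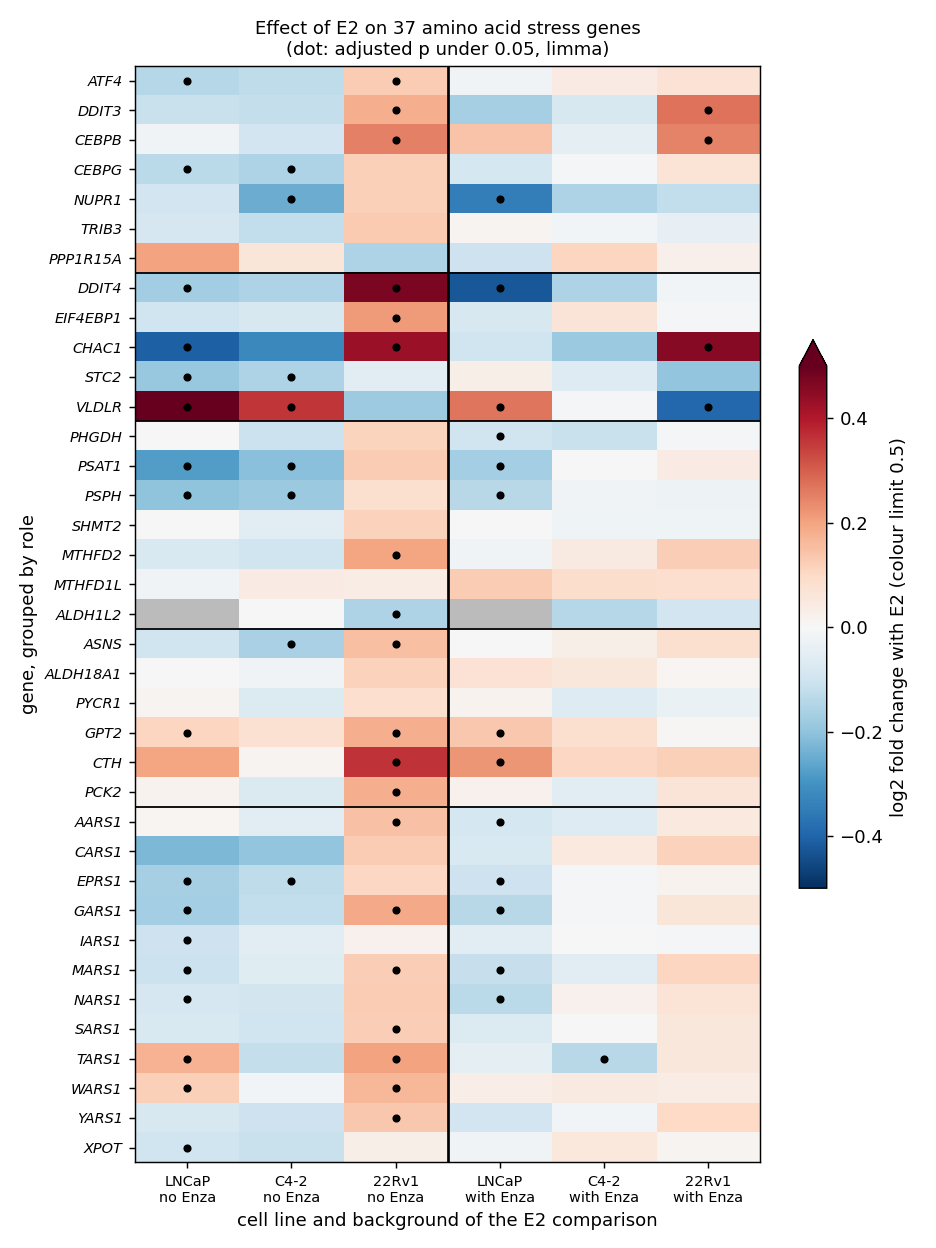
Log2 fold change with E2 for each of the 37 genes (rows, grouped by role, separated by lines) in LNCaP, C4-2 and 22Rv1, without Enza (left 3 columns) and with Enza (right 3 columns). Red is higher and blue lower with E2, dots mark limma adjusted p under 0.05, and grey cells were not tested. The blue columns of LNCaP and C4-2 and the red column of 22Rv1, with 13, 7 and 18 dots in those directions, face each other on the left, and VLDLR goes against both.

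The split between lines rests on sets of uneven firmness. The LNCaP count stayed between 10 and 12 when any 1 library was left out. The 22Rv1 count of 18 dropped to 6 on removing vehicle library 1, to 11 on removing vehicle library 2 and to 6 on removing either E2 library 1 or E2 library 2; with vehicle library 3 removed it was 16. In C4-2, none of the 7 was called by limma once vehicle library 1 and E2 library 3 were left out, although the median stayed at -0.08. The C4-2 count was 4, 3 and 4 without vehicle library 1, 2 or 3, and 2 without E2 library 3. Scaling by total reads moved the counts to 20 lower and 2 higher in LNCaP and to 5 higher and 2 lower in 22Rv1, while the median kept its sign in each line (-0.14, -0.08 and 0.06).

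Among the transcription factors and feedback genes, ATF4 itself (Entrez 468, chr22:39520559-39522686) followed the split under E2 without Enza. In LNCaP its level was 221, 224 and 234 CPM in the vehicle libraries and 201, 203 and 211 with E2. In 22Rv1 it was 229, 233 and 235 with vehicle and 249, 265 and 248 with E2. The groups did not overlap in either line, and E2 libraries were the lower ones in LNCaP and the higher ones in 22Rv1. The log2 fold changes were -0.14 ± 0.04, adjusted p = 0.00363 and 0.13 ± 0.05, adjusted p = 0.0442, and -0.13 ± 0.04, adjusted p = 0.065 in C4-2, where it was not called. CEBPG, the C/EBP partner of ATF4 on such elements, fell in LNCaP (-0.13 ± 0.04, adjusted p = 0.00568) and in C4-2 (-0.15 ± 0.04, adjusted p = 0.0231). The C4-2 call of CEBPG was lost without C4-2 vehicle library 1 and E2 library 3. CEBPB, a related factor, rose in 22Rv1 alone among the lines by this threshold (0.25 ± 0.07, adjusted p = 0.0144), as did DDIT3, the factor CHOP that acts late in the response (0.18 ± 0.06, adjusted p = 0.0159). TRIB3, a pseudokinase that restrains ATF4, and PPP1R15A, the phosphatase subunit that reverses eIF2 phosphorylation, passed the test in no line. Their fold changes were -0.08, -0.12 and 0.13 for TRIB3 and 0.20, 0.06 and -0.15 for PPP1R15A, in the order LNCaP, C4-2, 22Rv1.

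NUPR1 (Entrez 26471, chr16:28532708-28538974) encodes a small stress-induced chromatin protein that works with ATF4. Its C4-2 level was 87.1, 87.4 and 85.8 CPM with vehicle and 72.8, 78.5 and 67.7 with E2, with no overlap. It fell there (-0.25 ± 0.05, adjusted p = 0.00242); without vehicle library 1 and E2 library 3 the adjusted p was 0.0872 (limma, log2 fold change -0.19). In LNCaP the values were 53.8, 54.7 and 60.8 and 54.8, 53.0 and 50.4, which overlapped, and in 22Rv1 79.4, 79.0 and 84.6 and 89.5, 91.7 and 83.2, which overlapped too. Neither passed the test (-0.10 ± 0.05, adjusted p = 0.152; 0.12 ± 0.06, adjusted p = 0.107). Of the 7 factors and feedback genes, 2 fell in LNCaP, 2 fell in C4-2 and 3 rose in 22Rv1, where 11.6%, 3.11% and 17.1% of all genes did so.

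Of the growth brakes and stress effectors, DDIT4 (Entrez 54541, chr10:72273924-72276036), also known as REDD1, led in 22Rv1; its product inhibits the growth kinase complex mTORC1. In 22Rv1 its level was 13.2, 14.9 and 13.4 CPM with vehicle and 19.6, 19.2 and 19.1 with E2. All E2 libraries lay above all vehicle libraries, and the log2 fold change was 0.47 ± 0.08, adjusted p = 8.7e-05. In LNCaP the values were 118, 123 and 151 with vehicle and 118, 109 and 118 with E2, and the groups overlapped at 118 CPM. The fall there (-0.18 ± 0.06, adjusted p = 0.034) rested on vehicle library 3: without it the log2 fold change was -0.07 (limma adjusted p = 0.328), and without E2 library 2 it was -0.14 (adjusted p = 0.164). In C4-2 it read 231, 223 and 239 with vehicle and 224, 201 and 198 with E2, overlapping, and was not called (-0.15 ± 0.05, adjusted p = 0.0737).

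CHAC1, which breaks down glutathione, had low levels and large relative shifts. LNCaP libraries held 3.89, 3.54 and 3.87 CPM with vehicle and 2.85, 2.31 and 3.03 with E2; 22Rv1 libraries held 1.95, 1.93 and 2.12 and 2.81, 3.02 and 2.78. The groups were apart in both lines, downward in LNCaP (-0.41 ± 0.11, adjusted p = 0.00834) and upward in 22Rv1 (0.43 ± 0.14, adjusted p = 0.0199). In C4-2 the change was -0.32 ± 0.10, adjusted p = 0.0568, short of the threshold. STC2, a secreted glycoprotein, fell in LNCaP (-0.19 ± 0.05, adjusted p = 0.00389) and C4-2 (-0.15 ± 0.04, adjusted p = 0.0288) and was at -0.05 in 22Rv1. Its C4-2 call was lost without C4-2 vehicle library 1 and E2 library 3. EIF4EBP1, which blocks cap-dependent translation when mTORC1 is off, rose in 22Rv1 (0.21 ± 0.06, adjusted p = 0.00746).

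VLDLR (Entrez 7436, chr9:2621787-2660056), a lipoprotein receptor, went the other way from most of the genes. In LNCaP its level was 12.0, 12.2 and 13.4 CPM with vehicle and 26.4, 26.4 and 24.8 with E2, a rise of 1.02 on the log2 scale (1.02 ± 0.08, adjusted p = 4.42e-11). In C4-2 it was 14.3, 13.1 and 16.0 with vehicle and 18.1, 19.1 and 18.7 with E2 (0.36 ± 0.08, adjusted p = 0.0054). The E2 libraries were above the vehicle libraries in both. In 22Rv1 the values were 7.48, 5.70 and 6.46 and 5.48, 5.60 and 5.95, overlapping and not called (-0.18 ± 0.10, adjusted p = 0.185). The C4-2 call was lost without vehicle library 2 (adjusted p = 0.0577) and without vehicle library 1 and E2 library 3 together (adjusted p = 0.0688, limma), with log2 fold changes of 0.29 and 0.34.

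Serine synthesis came next: PHGDH, PSAT1 and PSPH are the enzymes of the 3 steps from a glycolytic intermediate to serine. PSAT1 (Entrez 29968, chr9:78297125-78330093), the aminotransferase, stood in LNCaP at 190.1, 188 and 191 CPM with vehicle and 158, 157 and 155 with E2. The C4-2 libraries read 239, 237 and 234 and 206, 213 and 195. In both lines every E2 library was below every vehicle library, and PSAT1 fell in LNCaP (-0.28 ± 0.03, adjusted p = 6.87e-08) and C4-2 (-0.21 ± 0.04, adjusted p = 0.00108). In 22Rv1 the order was turned, 126, 129 and 135 with vehicle and 143, 142 and 141 with E2, without overlap but short of the threshold (0.13 ± 0.05, adjusted p = 0.0729). In C4-2 without vehicle library 1 and E2 library 3 the adjusted p was 0.0574.

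PSPH (Entrez 5723, chr7:56011064-56051444), the phosphatase that releases serine, had the same order. Its LNCaP levels were 51.3, 52.9 and 55.7 CPM with vehicle and 47.1, 46.3 and 45.2 with E2, and its C4-2 levels 61.9, 60.9 and 59.1 and 52.3, 56.3 and 51.4. Neither pair overlapped, and PSPH fell in LNCaP (-0.20 ± 0.04, adjusted p = 0.000679) and C4-2 (-0.18 ± 0.05, adjusted p = 0.0179). The C4-2 call was lost (limma adjusted p 0.0642 to 0.112) without vehicle library 1 or 2 or E2 library 1 or 3. The 22Rv1 values, 42.4, 44.4 and 44.1 and 46.0, 46.3 and 46.3, had the E2 libraries on top and were not called (0.08 ± 0.05, adjusted p = 0.264). PHGDH, the first enzyme, passed the test in no line (0.00, -0.11 and 0.11 in the same order of lines).

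MTHFD2 (Entrez 10797, chr2:74198615-74217565), a mitochondrial enzyme of folate-bound carbon units, rose in 22Rv1. It was at 136, 146 and 148 CPM with vehicle and 165, 168 and 159.9 with E2, with all E2 libraries higher (0.20 ± 0.04, adjusted p = 0.00203). In LNCaP, 110.0, 112 and 116 against 105, 109.8 and 106 was just apart, with E2 lower, and not called (-0.07 ± 0.03, adjusted p = 0.0811). In C4-2, 195, 184 and 184 against 177, 179.9 and 168 was apart in the same order and not called either (-0.10 ± 0.05, adjusted p = 0.235). SHMT2 and MTHFD1L, its neighbours in the pathway, passed in no line. ALDH1L2, which ends the pathway by oxidising formyl-folate, was the single gene of the 37 that fell in 22Rv1 (-0.16 ± 0.05, adjusted p = 0.0259).

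Among the enzymes of asparagine, proline, alanine, cysteine and gluconeogenesis, ASNS (asparagine synthetase) fell in C4-2 (-0.16 ± 0.04, adjusted p = 0.0183) and rose in 22Rv1 (0.15 ± 0.05, adjusted p = 0.0262). In C4-2 its level was 95.6, 89.97 and 96.8 CPM with vehicle and 84.7, 84.3 and 82.8 with E2, and in 22Rv1 133, 145 and 143 and 153, 159 and 154. The groups did not overlap in either line, but the C4-2 call was lost without vehicle library 1 and E2 library 3. GPT2, the mitochondrial alanine aminotransferase, rose in LNCaP (0.11 ± 0.04, adjusted p = 0.0366) and in 22Rv1 (0.18 ± 0.06, adjusted p = 0.0193). CTH, which makes cysteine, rose in 22Rv1 (0.36 ± 0.13, adjusted p = 0.0379), as did PCK2, the mitochondrial enzyme that makes phosphoenolpyruvate (0.18 ± 0.06, adjusted p = 0.033). The proline enzymes ALDH18A1 and PYCR1 passed in no line. In all, 4 of these 6 genes rose in 22Rv1, 1 rose in LNCaP and 1 fell in C4-2 (17.1%, 13.3% and 3.11% of all genes).

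The aminoacyl-tRNA synthetases join amino acids to their tRNAs, and XPOT carries tRNAs out of the nucleus. Of the 12 genes, 6 fell and 2 rose in LNCaP (11.6% and 13.3% of all genes), 1 fell in C4-2 (3.11%) and 7 rose in 22Rv1 (17.1%). GARS1 (glycine, Entrez 2617, chr7:30594735-30634033) was at 159, 149 and 152 CPM with vehicle and 138, 139 and 132 with E2 in LNCaP. In 22Rv1 it was at 159, 161 and 163 and 183, 184 and 184. The libraries were apart in both lines, in opposite order (-0.17 ± 0.04, adjusted p = 0.000571; 0.19 ± 0.05, adjusted p = 0.00359); with total read scaling the adjusted p in 22Rv1 was 0.059. In C4-2, 207, 206 and 209 against 191, 194 and 187 did not overlap but was not called (-0.12 ± 0.04, adjusted p = 0.0737). MARS1 (methionine) also fell in LNCaP (-0.11 ± 0.03, adjusted p = 0.0137) and rose in 22Rv1 (0.12 ± 0.04, adjusted p = 0.031).

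EPRS1 (glutamate and proline, Entrez 2058, chr1:219968600-220046505) fell in the related lines. LNCaP libraries read 444, 422 and 428 CPM with vehicle and 385, 381 and 388 with E2, and C4-2 libraries 368, 365 and 389.7 and 345, 346 and 337. E2 libraries were the lower in both (-0.16 ± 0.03, adjusted p = 0.000213; -0.13 ± 0.04, adjusted p = 0.0482), but the C4-2 call was lost on leaving out any 1 library of the compared groups (limma adjusted p 0.0631 to 0.2). In 22Rv1, 517, 544 and 553 against 577, 580.2 and 574 was apart but not called (0.10 ± 0.06, adjusted p = 0.185), and its sign turned under cyclic loess scaling.

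TARS1 (threonine, Entrez 6897, chr5:33440696-33468091) rose in LNCaP as well as in 22Rv1, unlike the synthetases above. The LNCaP levels were 212, 208 and 207 CPM with vehicle and 235, 240.5 and 231 with E2 (0.17 ± 0.03, adjusted p = 6.29e-05). The 22Rv1 levels were 87.0, 91.1 and 93.2 and 103, 104 and 106 (0.20 ± 0.05, adjusted p = 0.00282). E2 libraries were higher without overlap in both lines, whereas in C4-2 they were lower, 283, 275 and 286 against 256, 271 and 250.3, and not called (-0.12 ± 0.04, adjusted p = 0.0921). WARS1 (tryptophan) likewise rose in LNCaP (0.12 ± 0.04, adjusted p = 0.0257) and in 22Rv1 (0.17 ± 0.05, adjusted p = 0.0244). IARS1, NARS1 and XPOT fell in LNCaP, and AARS1, SARS1 and YARS1 rose in 22Rv1. CARS1 passed in no line.

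**Figure D2:**
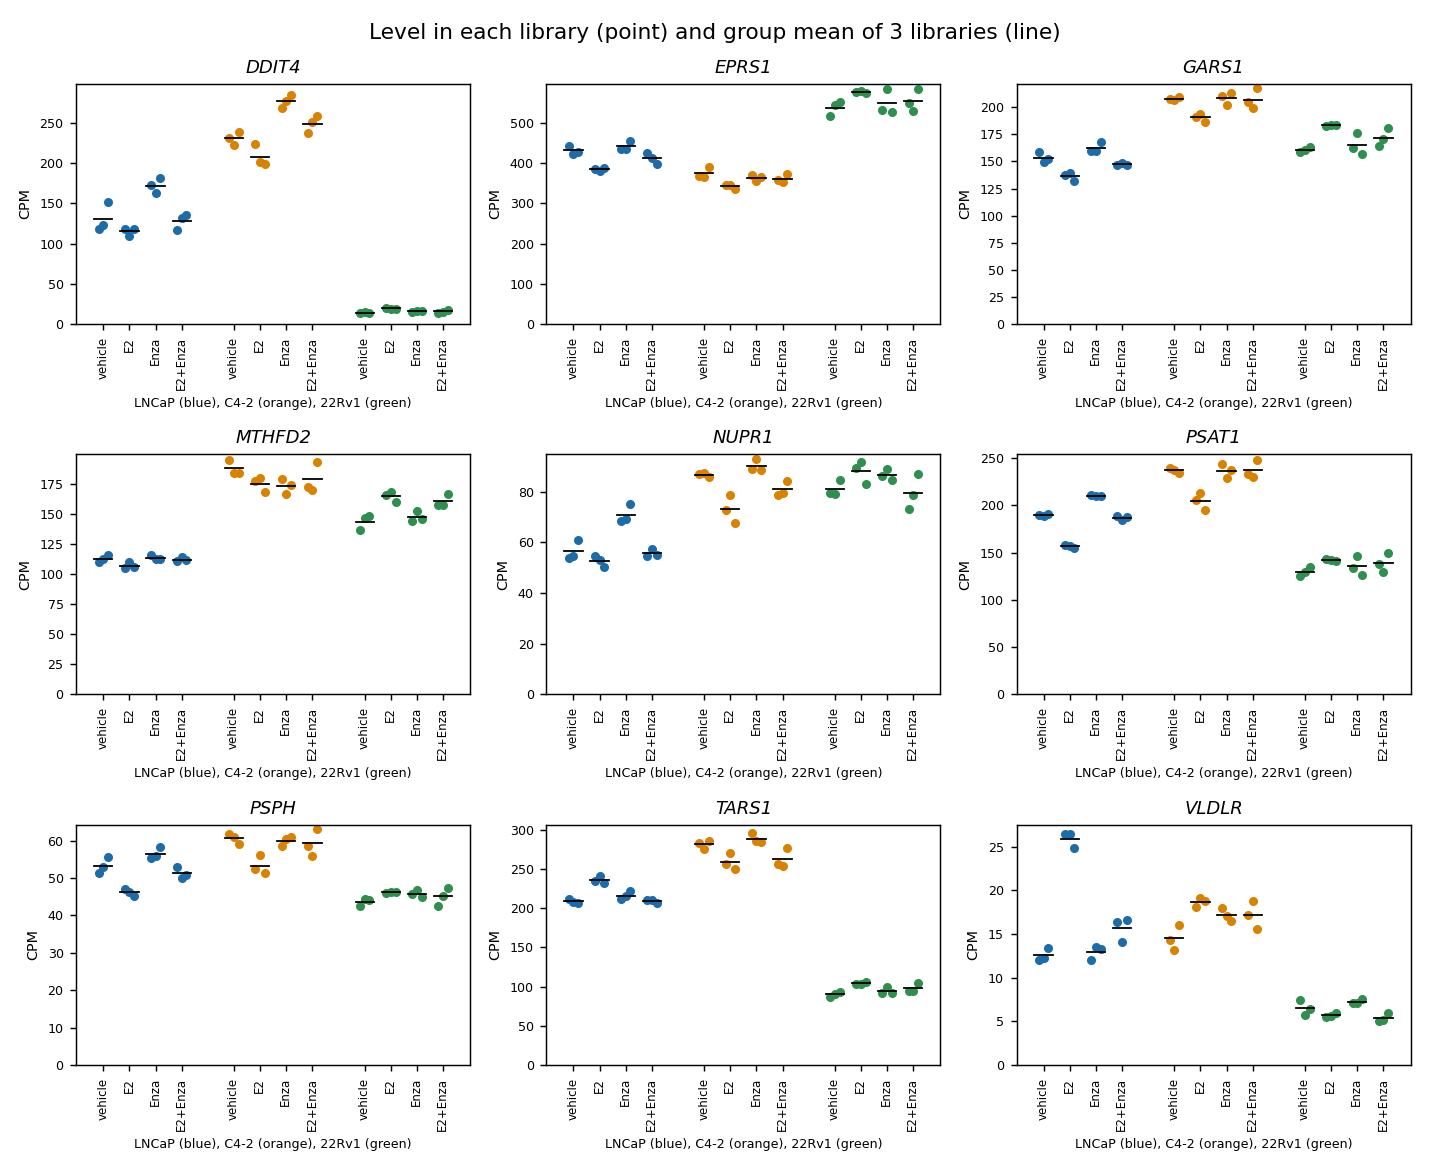
CPM in each library (points) and the mean of 3 libraries (line) for the 9 genes with the smallest p for E2 in a line, under vehicle, E2, Enza and both, in LNCaP (blue), C4-2 (orange) and 22Rv1 (green). PSAT1 shows the pattern of LNCaP and C4-2, E2 below vehicle, and MTHFD2 the rise in 22Rv1, while VLDLR is highest with E2 in LNCaP, at 24.8 to 26.4 CPM.

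The differences between lines were tested in 1 fit of all 54 libraries. Comparing 22Rv1 with C4-2, the E2 effect was higher in 22Rv1 for 27 of 37 genes and lower for 1, VLDLR, against 19.4% and 9.42% of 16026 genes. Comparing 22Rv1 with LNCaP, it was higher in 22Rv1 for 16 and lower for 1, again VLDLR, against 6.83% and 4.39%. Comparing C4-2 with LNCaP, it was higher for 0 genes and lower for 2 (TARS1 and VLDLR), against 3.2% and 5.21%. At an unadjusted p under 0.05 limma counted 2 genes in that last comparison, and with voom weights it was also 0 higher and 2 lower. An F test over the 3 lines called 24 of the 37, against 29.1% of all genes called. In 22Rv1 against C4-2 the count was 15 without C4-2 vehicle library 1 and E2 library 3, and 11 and 12 with total read and cyclic loess scaling. Without 22Rv1 vehicle library 3 the E2 effect was higher in 22Rv1 for 18 genes against LNCaP and 26 against C4-2.

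Single genes give the size of these differences. For DDIT4 the E2 effect in 22Rv1 was 0.65 ± 0.10 (adjusted p = 1.6e-06) above that in LNCaP and 0.62 ± 0.10 (adjusted p = 4.97e-06) above that in C4-2. CHAC1 differed by 0.84 ± 0.16 (adjusted p = 0.000159) from LNCaP and by 0.76 ± 0.16 (adjusted p = 0.000667) from C4-2. ATF4 differed by 0.27 ± 0.06 (adjusted p = 0.00076) and 0.26 ± 0.06 (adjusted p = 0.00125), and PSAT1 by 0.40 ± 0.06 (adjusted p = 1.6e-06) and 0.34 ± 0.06 (adjusted p = 6.18e-05). VLDLR had the opposite sign, -1.20 ± 0.13 (adjusted p = 2.54e-10) against LNCaP. Between the related lines, the E2 effect in C4-2 was below that in LNCaP by -0.66 ± 0.13 (adjusted p = 0.000236) for VLDLR and by -0.29 ± 0.05 (adjusted p = 0.000161) for TARS1. Each of these differences was also called by limma without the libraries that stood apart.

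Across the 36 genes tested in both, the E2 fold changes in LNCaP and C4-2 had Pearson's r = 0.897 and Spearman's rho = 0.799 (0.804 and 0.781 without VLDLR). Between LNCaP and 22Rv1 r was -0.45 and rho -0.045 (-0.182 and 0.039 without VLDLR), so the 2 lines did not rank the genes inversely. By sign alone, 27 of 36 genes were opposite, against 34.3% of all genes. Of the 36, 25 were negative in LNCaP and positive in 22Rv1, against 22.8% of all genes. Between C4-2 and 22Rv1 r was -0.504 and rho -0.211 over 37 genes (-0.349 and -0.143 without VLDLR), and 32 had opposite signs, against 63.5% of all genes. Of the 37, 30 were negative in C4-2 and positive in 22Rv1, against 42.7% of all genes. Over all genes r was 0.416, 0.511 and -0.022 and rho 0.157, 0.473 and -0.181 for the same pairs of lines. These lines share no libraries, genes are not independent replicates, and the values are descriptions with no p. In calls, 5 genes (ATF4, DDIT4, CHAC1, GARS1 and MARS1) fell in LNCaP and rose in 22Rv1 (0.593% of all genes did), and 1 (ASNS) fell in C4-2 and rose in 22Rv1 (0.462%). The DDIT4 call in LNCaP was lost without LNCaP vehicle library 3, and the GARS1 call in 22Rv1 with total read scaling. How many 22Rv1 rises stayed called depended on the library left out, as given above. PSAT1, PSPH, CEBPG, STC2 and EPRS1 fell in both LNCaP and C4-2 (1.91% of all genes), and TARS1, WARS1 and GPT2 rose in both LNCaP and 22Rv1 (6.55%). None of these C4-2 falls, nor that of ASNS, was called without C4-2 vehicle library 1 and E2 library 3. Of the 37, 29 passed the test in at least 1 line and 8 in none, against 40.3% and 59.7% of all genes.

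**Figure D3:**
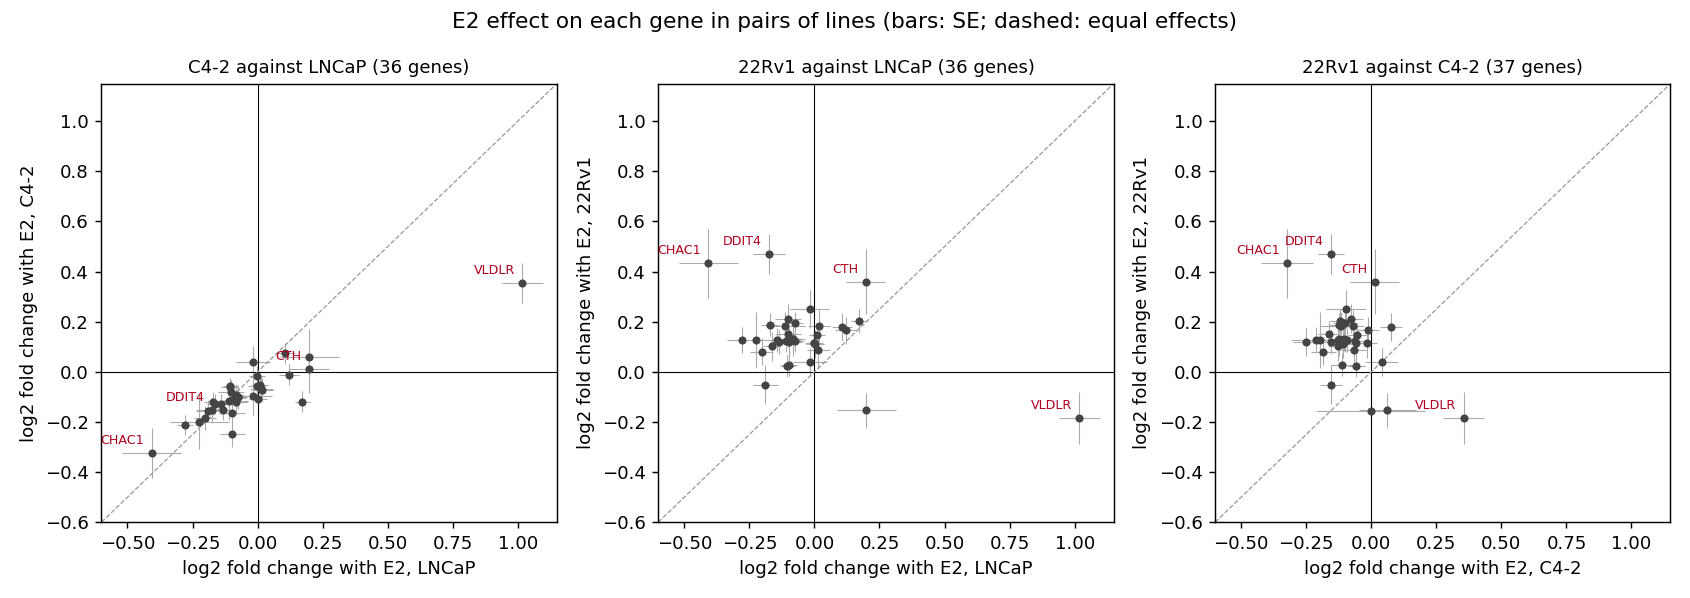
Log2 fold change with E2 in 1 line against another for each gene (points, bars are SE, the dashed line marks equal effects). In the left panel (C4-2 against LNCaP) most points lie near the dashed line, with VLDLR and TARS1 below it. In the other panels (22Rv1 against LNCaP and against C4-2) most lie in the upper left, negative on the horizontal axis and positive on the vertical, with VLDLR at the lower right.

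Enzalutamide alone raised more of these genes than it lowered in LNCaP, where 11 of 36 rose and 1 fell, against 9.79% and 10.6% of all genes. DDIT4 went from 118, 123 and 151 CPM with vehicle to 172, 163 and 181 with Enza (0.40 ± 0.06, adjusted p = 1.41e-05), NUPR1 from 53.8, 54.7 and 60.8 to 68.6, 69.2 and 75.03 (0.33 ± 0.05, adjusted p = 1.03e-05) and PSAT1 from 190.1, 188 and 191 to 211, 209 and 210.2 (0.15 ± 0.03, adjusted p = 0.00116). In each of these the Enza libraries were all above the vehicle libraries. PPP1R15A (0.50 ± 0.11, adjusted p = 0.00235), CHAC1 (0.38 ± 0.11, adjusted p = 0.0185), DDIT3, PHGDH, ATF4 (0.10 ± 0.04, adjusted p = 0.0452), MARS1, YARS1 and NARS1 rose too, and ALDH18A1 fell (-0.09 ± 0.03, adjusted p = 0.0362). In C4-2 DDIT4 alone rose, from 231, 223 and 239 to 269, 277 and 285 (0.26 ± 0.05, adjusted p = 0.00115), against 2.73% of genes rising and 5.71% falling. In 22Rv1 limma called 0 of 37 in each direction, with 4 at an unadjusted p under 0.05, and voom weights also called 0, against 0.168% and 0.491% of all genes. On removing vehicle library 1, vehicle library 2 or Enza library 3, the LNCaP count was 7, 5 and 6. E2 and Enza were each compared with the same vehicle libraries, so the 2 sets of fold changes share them.

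Giving E2 on top of Enza, compared with Enza alone, uses no vehicle library. In LNCaP 10 genes fell and 3 rose with E2 (12.2% of all genes rose and 10.9% fell). DDIT4 went from 172, 163 and 181 CPM to 117, 131 and 136 (-0.42 ± 0.06, adjusted p = 3.76e-06), NUPR1 from 68.6, 69.2 and 75.03 to 54.5, 57.5 and 55.2 (-0.34 ± 0.05, adjusted p = 2.81e-06) and PSAT1 from 211, 209 and 210.2 to 188, 184 and 187 (-0.17 ± 0.03, adjusted p = 0.000136), all without overlap. GARS1, PSPH, NARS1, MARS1, EPRS1, PHGDH and AARS1 fell as well, and VLDLR, CTH and GPT2 rose. The count of 10 was 5 without Enza library 3, and the count of 3 was 1 without E2+Enza library 1 or 3. In C4-2 TARS1 fell (-0.14 ± 0.04, adjusted p = 0.0394) and no other gene passed, with 4 at an unadjusted p under 0.05 and the same call with voom weights (4.43% of genes rose and 2.94% fell). In 22Rv1 CHAC1 (0.45 ± 0.14, adjusted p = 0.0348), DDIT3 (0.27 ± 0.06, adjusted p = 0.00129) and CEBPB (0.25 ± 0.07, adjusted p = 0.035) rose and VLDLR fell (-0.39 ± 0.10, adjusted p = 0.0131), against 4.11% and 3.83%. DDIT4, the leading riser of 22Rv1 under E2 alone, read 14.3, 16.4 and 16.4 with Enza and 14.2, 15.3 and 17.2 with both, overlapping groups. ATF4 was called in no line here. Its log2 fold changes were -0.02 in LNCaP (limma adjusted p = 0.759), 0.04 in C4-2 (adjusted p = 0.67) and 0.07 in 22Rv1 (adjusted p = 0.44).

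The same differences were tested with Enza present; whether they changed with Enza was not tested. The E2 effect with Enza was higher in 22Rv1 than in LNCaP for 8 genes and lower for 1 (9.4% of genes called in either direction), and higher than in C4-2 for 4 (5.77%). Between C4-2 and LNCaP limma called 0 genes, with 6 at an unadjusted p under 0.05 (5.24% of genes called). CHAC1, DDIT3 and MARS1 differed in both of the first comparisons. Whether Enza changed the E2 effect was tested as an interaction within each line. In LNCaP 4 of 36 genes passed (9.05% of all genes). The interaction was negative for VLDLR (-0.75 ± 0.11, adjusted p = 3.61e-05), NUPR1 (-0.25 ± 0.07, adjusted p = 0.0203) and TARS1 (-0.22 ± 0.04, adjusted p = 0.000953). It was positive for STC2 (0.22 ± 0.07, adjusted p = 0.0416). For NUPR1 the E2 change was -0.10 without Enza and -0.34 with it, a deeper fall. For STC2 it was -0.19 without Enza and 0.03 with it, so the fall was absent with Enza. VLDLR read 12.0, 13.5 and 13.3 CPM with Enza and 16.3, 14.1 and 16.6 with both, so its rise with E2 remained, at 0.27 ± 0.08, adjusted p = 0.0128. TARS1 read 211, 215 and 222 and 210.4, 210.1 and 207, and was not called (-0.05 ± 0.03, adjusted p = 0.294). In 22Rv1 DDIT4 passed (-0.48 ± 0.11, adjusted p = 0.0477; 0.424% of genes), but without vehicle library 3 limma called 0 genes there, and in C4-2 limma called 0, with 10 at an unadjusted p under 0.05 (1.5%).

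Adding Enza to E2, compared with E2 alone, gave 9 higher and 2 lower in LNCaP (13.5% of genes called), 3 higher in C4-2 (3.46%) and 1 lower in 22Rv1 (1.2%). CHAC1 (0.69 ± 0.11, adjusted p = 6.21e-05), PSAT1 (0.25 ± 0.03, adjusted p = 7.4e-07) and ATF4 (0.22 ± 0.04, adjusted p = 3.88e-05) were among the genes higher in LNCaP, and VLDLR and TARS1 were the lower ones. In C4-2 the 3 were DDIT4, PSAT1 and ASNS, and in 22Rv1 the 1 was DDIT4, which was not called without vehicle library 3; without C4-2 vehicle library 1 and E2 library 3 the C4-2 count was 2. With both agents against vehicle, 3 genes rose in LNCaP (7.42% of genes called), 0 passed in C4-2 (0.0784%; 5 at an unadjusted p under 0.05) and 3 rose and 1 fell in 22Rv1 (13.8%; 3 and 0 without vehicle library 3).

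**Figure D4:**
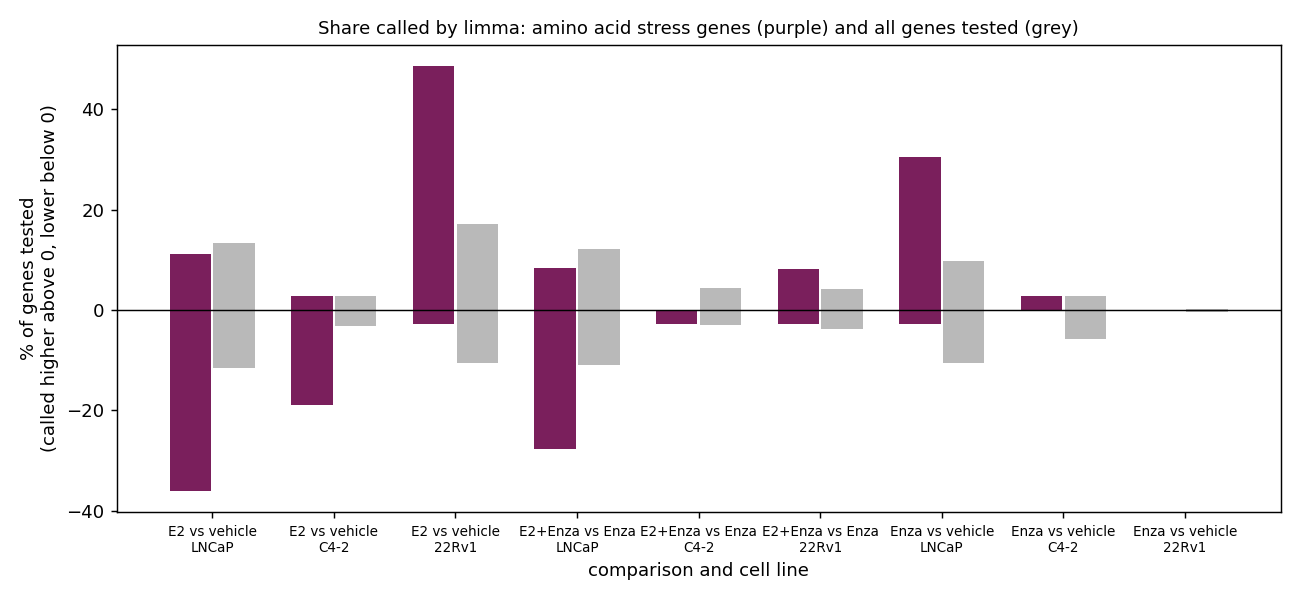
Share of genes called higher (above 0) and lower (below 0) by limma among the stress genes (purple) and among all genes tested (grey), for E2 against vehicle, E2+Enza against Enza, and Enza against vehicle in each line. Purple bars reach past the grey ones downward in LNCaP and C4-2 and upward in 22Rv1 for E2, and upward in LNCaP for Enza. For E2+Enza against Enza they do so downward in LNCaP and upward in 22Rv1, and in neither direction in C4-2.

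OSU-ERb-12 moved none of the 37 genes past the threshold in any line. Against vehicle, limma called 0 in LNCaP, C4-2 and 22Rv1, with 7, 0 and 1 at an unadjusted p under 0.05 and 0 with voom weights. All genes called were 0.014% in LNCaP, 0% in C4-2 and 0% in 22Rv1. The fold changes lay between -0.12 and 0.17, -0.20 and 0.12, and -0.03 and 0.26 on the log2 scale, and the widest 95% intervals reached -0.47 and 0.54. Against Enza alone, OSU-ERb-12 with Enza also gave 0 called by limma, with 4, 2 and 9 at an unadjusted p under 0.05, against 0.0982%, 0% and 0.101% of all genes. OSU-ERb-12 with Enza against vehicle gave 14 higher and 4 lower in LNCaP (29.7% of genes called), with DDIT4 (0.50 ± 0.06, adjusted p = 3.84e-07) and CHAC1 (0.67 ± 0.11, adjusted p = 5.86e-05) among the higher. In C4-2 it gave 1, DDIT4 (0.36 ± 0.05, adjusted p = 1.88e-05; 7.39%), and in 22Rv1 0, with 11 at an unadjusted p under 0.05 (1.99%).

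The lines also began from different levels. In vehicle libraries C4-2 was above LNCaP for 28 of 37 genes and below for 3, with a median of 0.32 (34% and 32.7% of all genes called). 22Rv1 was above LNCaP for 9 and below for 21 (median -0.23; 40.4% and 43%), and above C4-2 for 5 and below for 30 (median -0.43; 41.5% and 43.3%). Leaving out the libraries that stood apart moved none of these counts by more than 1 gene. DDIT4 was at 13.8 ± 0.951 CPM in 22Rv1, 131 ± 17.9 in LNCaP and 231 ± 7.94 in C4-2 (mean ± SD, n = 3). PPP1R15A and DDIT3 stood at 38.4 ± 3.57 and 40.4 ± 2.03 CPM in 22Rv1 against 4.79 ± 0.445 and 11.6 ± 0.578 in LNCaP and 4.91 ± 0.123 and 15.6 ± 1.22 in C4-2, so 22Rv1 was highest for both. DDIT3 was also higher in C4-2 than in LNCaP (limma adjusted p = 2.64e-07), whereas PPP1R15A was not called between them (adjusted p = 0.781). ALDH1L2 was at 66.0 ± 2.26 in 22Rv1 and at 0.875 ± 0.175 in LNCaP and 0.773 ± 0.296 in C4-2. PHGDH was lower in 22Rv1, 82.8 ± 1.20 against 312 ± 9.20 and 411 ± 5.30.

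Related genes outside the 37 give the setting. Of 21 genes listed here as further ATF4 targets, 4 rose and 6 fell in LNCaP, 1 rose and 3 fell in C4-2, and 9 rose and 1 fell in 22Rv1 with E2, over 19, 20 and 20 tested. SLC43A1, an amino acid transporter, rose in all 3 lines (0.58 ± 0.04, adjusted p = 1.59e-11; 0.54 ± 0.04, adjusted p = 4.78e-10; 1.58 ± 0.10, adjusted p = 1.29e-12), and SESN2, a leucine sensor of the mTORC1 pathway, fell in C4-2 (-0.28 ± 0.05, adjusted p = 0.000321). Among the eIF2 kinases and the eIF2 machinery, 3 of 16 rose and 3 fell in LNCaP, 0 passed in C4-2 (limma; 4 at an unadjusted p under 0.05) and 3 rose and 1 fell in 22Rv1. EIF2AK3, the endoplasmic reticulum kinase PERK, rose in LNCaP (0.23 ± 0.06, adjusted p = 0.0043) and in 22Rv1 (0.24 ± 0.07, adjusted p = 0.0118). Against the shares of all genes that rose (13.3%, 2.72% and 17.1% in LNCaP, C4-2 and 22Rv1) and fell (11.6%, 3.11% and 10.6%), several of these lists lay near or below the background. Of 12 other cytosolic synthetase genes 1 rose and 1 fell in LNCaP and 3 rose in 22Rv1; of 17 mitochondrial ones 2 fell in LNCaP and 2 rose in 22Rv1. Of 17 other serine, folate and methionine cycle genes 1 rose and 2 fell in LNCaP and 7 rose and 1 fell in 22Rv1. None of these 3 lists had a gene called in C4-2 by limma, with 4, 0 and 1 at an unadjusted p under 0.05.

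In the other arms of the unfolded protein response the calls had 1 direction. Of 14 genes of the ATF6 and XBP1 arms, 13 rose in LNCaP, 4 in C4-2 and 13 in 22Rv1, and none fell by the limma threshold. In the same order of lines, 13.3%, 2.72% and 17.1% of all genes tested rose. The size of the E2 effect still differed over the lines for 7 of the 14 in the F test, against 29.1% of all genes called. HSPA5, the chaperone BiP, rose in all 3 (0.36 ± 0.03, adjusted p = 9.4e-10; 0.25 ± 0.04, adjusted p = 0.000156; 0.30 ± 0.06, adjusted p = 0.000304), and so did MANF, a secreted stress protein (0.40 ± 0.04, adjusted p = 4.67e-09; 0.19 ± 0.05, adjusted p = 0.0254; 0.27 ± 0.04, adjusted p = 3.48e-05). All 7 androgen-induced genes of the list rose with E2 in each line, among them FKBP5 (2.56 ± 0.06, adjusted p = 5.63e-23; 1.42 ± 0.05, adjusted p = 2.18e-16; 2.22 ± 0.05, adjusted p = 4e-24) and KLK3 (0.50 ± 0.04, adjusted p = 2.08e-11; 0.27 ± 0.05, adjusted p = 0.000265; 1.01 ± 0.11, adjusted p = 7.25e-08). The summed level of the 6 luminal markers used was 1952 to 2017 CPM over vehicle libraries and 2928 to 2993 over E2 libraries in LNCaP, 2048 to 2132 and 2299 to 2476 in C4-2, and 1047 to 1079 and 1217 to 1285 in 22Rv1. The summed 3 fibroblast markers lay at 17.8 to 20.2 with vehicle and 14.9 to 17.0 CPM with E2 in LNCaP, 7.40 to 8.29 and 8.56 to 9.87 in C4-2, and 3.08 to 4.16 and 3.44 to 3.74 in 22Rv1. KRT14 rose in LNCaP, from at most 0.849 to at most 1.77 CPM. The part of these markers in the results was not tested, and in such bulk samples fewer cells of a type and less RNA per cell cannot be told apart.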

How the data were processed

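Total RNA of 54 libraries was sequenced from a stranded kit with 1 µg of RNA each, per the labels' protocols. Named in the submitters' processing notes are edgeR, featureCounts, Trimmomatic, FastQC and hg38, and in the series' design text Rsubread; which versions is not given in the sources used here. The authors' deposited table is named CPM, but it holds a score, the log2 of CPM after adding 0.5 reads, rescaled so that each column sums to 1000000, with 24.3 to 30.1% of values per library below 0. This reading comes from the values. Whole reads were recovered from the deposited scores for 100% of values (tolerance 0.001), and CPM was recomputed from them on the authors' effective library sizes.

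Genes reaching 1 CPM in 3 or more libraries were tested by limma 3.58.1 (trend, R 4.3.3) on log2(CPM + 0.5), each line alone (18 libraries, 12 residual degrees of freedom) and differences between lines in 1 fit of 54, with Benjamini-Hochberg adjustment over all genes and a threshold of 0.05. The scripts were tested on simulated data. The members and lists were chosen with earlier results of these data known. Values by library are given for the 4 genes with the smallest p for E2 in each line, and for ATF4, CHAC1 and ASNS, which were added after their values were seen; from the other lists genes among the 3 smallest p in a line were named, with KLK3 and FKBP5. Replicate numbers did not pair the libraries: of 36 same-numbered pairs 5 correlated above 0.1 (r -0.285 to 0.221). No replicate of a group was a duplicate of another of that group (chi-square per gene 4.04 to 57.9). Alternatives were the pseudocount, the filter, 4 other scalings or weightings, 1 fit for all lines, a replicate block and leaving out libraries; leaving out the libraries that stood apart and the comparison with genes of similar level were added after seeing the data. How reads shared with near-identical copies were counted is not stated in the labels, so PSAT1, PSPH, MTHFD2 and ATF4, which have pseudogenes, are less certain. Symbols and coordinates are from RefSeq (GRCh38.p14), in which 18917 of 19225 identifiers were found. Some markers of the lists are not reported here. Precision was limited by 3 libraries per group. The part of read depth was not tested, and genes at low levels such as CHAC1 had fewer reads.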

Additional observations from a re-analysis of the deposited data

Results flagged for a closer look

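The E2 effect differed between lines or with Enza by a test of the difference itself (limma, adjusted over all genes) for these counts of the 37 genes. The interaction of E2 and Enza passed for 4 genes in LNCaP and 1 in 22Rv1. The difference passed for 2 genes between C4-2 and LNCaP, 17 between 22Rv1 and LNCaP and 28 between 22Rv1 and C4-2, and the F test over the 3 lines for 24. With Enza present it passed for 9 between 22Rv1 and LNCaP and 4 between 22Rv1 and C4-2. In 22Rv1 against C4-2 the E2 log2 fold change was higher by 0.62 for DDIT4, 0.37 for NUPR1, 0.34 for PSAT1, 0.32 for TARS1, 0.31 for GARS1, 0.3 for MTHFD2, 0.26 for PSPH and 0.23 for EPRS1, and VLDLR differed by -0.54. Against LNCaP it was higher by 0.65 for DDIT4, 0.4 for PSAT1, 0.36 for GARS1, 0.28 for PSPH, 0.27 for MTHFD2 and 0.27 for EPRS1, and VLDLR differed by -1.2. C4-2 minus LNCaP gave -0.66 for VLDLR and -0.29 for TARS1. Groups of 3 libraries were not tested for outlying libraries.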

How the results depend on the processing

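Of 420 values of single genes under an alternative, 383 kept their direction and side of the threshold, 26 lost the call, 9 gained it and 2 turned, neither of them called: EPRS1 with E2 in 22Rv1 under cyclic loess, -0.0148, and the CHAC1 difference of C4-2 from LNCaP without the C4-2 libraries that stood apart, -0.0073. The cause of these moves was not tested. Total read scaling gave, for E2, 2 higher and 20 lower in LNCaP, 5 higher and 2 lower in 22Rv1 and 11 higher for 22Rv1 against C4-2; for Enza, 7 higher and 0 lower in LNCaP and 5 higher in C4-2; and for E2 on Enza, 1 higher in LNCaP and 4 lower in C4-2. Cyclic loess gave, for E2, 7 higher and 2 lower in 22Rv1, 12 higher for 22Rv1 against C4-2 and 1 higher for C4-2 against LNCaP, 4 higher for Enza in C4-2 and 4 lower for E2 on Enza in C4-2. TMM factors gave 4 lower for the last, no filter 0, and voom weights 2 higher for Enza in C4-2. One fit of 54 libraries gave 2 higher in LNCaP and 0 lower in 22Rv1 for E2, 0 lower in LNCaP, 1 lower in C4-2 and 1 higher in 22Rv1 for Enza, and 5 higher and 2 lower in 22Rv1 for E2 on Enza. Without C4-2 vehicle library 1 and E2 library 3, chosen after seeing the data, E2 gave 0 higher and 0 lower in C4-2 and 15 higher for 22Rv1 against C4-2. Without 22Rv1 vehicle library 3, also chosen so, E2 with Enza against vehicle, E2 with Enza against E2 and the interaction gave 0 lower in 22Rv1.

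Leaving out 1 library gave these ranges. For E2 in LNCaP, 2 to 4 higher; in C4-2, 0 to 1 higher and 2 to 6 lower; in 22Rv1, 6 to 17 higher and 0 to 1 lower; for 22Rv1 against LNCaP, 1 to 2 lower. For Enza in LNCaP, 5 to 11 higher and 0 to 2 lower; in C4-2, 1 to 2 higher; in 22Rv1, 0 to 1 lower. For E2 on Enza in LNCaP, 1 to 3 higher and 5 to 9 lower; in C4-2, 0 to 2 lower; in 22Rv1, 1 to 2 higher and 0 to 2 lower.

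With a replicate block, E2 gave 12 lower in LNCaP and 17 higher in 22Rv1, and EPRS1 in C4-2 lost its call (adjusted p = 0.0562, limma). In 13 of 36 same-numbered pairs, the library correlated best with the same number in the other group, so the libraries share only a number.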
